A study of Mus musculus with 10 samples.

Results

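Cytosolic ribosomal protein genes encode the proteins of the ribosome that works in the cytosol, and they were examined here in 4T1 tumors with and without BC@Z-M + L treatment. Members were the genes whose symbol reads Rpl or Rps followed by a number, or Rpsa, Rplp0, Rplp1 or Rplp2, including close paralog forms that end in a, l, l1 or x, and that averaged 1 FPKM or more over the 10 libraries. FPKM counts fragments per unit of transcript length and of library size, so levels can be compared between genes. The rule matched 85 symbols, and 83 of them passed the level, out of 34449 genes in the table and 12802 genes at that level. Of the 83 members, 32 belong to the small subunit and 51 to the large subunit, among them the 3 P stalk genes. This rule does not use the measured difference between groups, though the members were chosen with earlier results of these data known.

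The 4T1 line is a mouse triple-negative breast carcinoma, and tumors were grown under the skin of female BALB/c mice, given as 9 weeks old in the series text. There were 5 libraries of control tumors and 5 of tumors that received BC@Z-M with laser light (L). BC@Z-M is a zeolitic imidazolate framework (ZIF-8) particle that carries the hypoxia-responsive photosensitizer BN-O and the vascular disrupting agent CA4P under a membrane taken from M1-like macrophages. The carrier, both drugs, the membrane and the light were given together, so their effects cannot be told apart in these libraries. The sources used here do not say that every library came from its own mouse, and p-values therefore measure the spread between libraries. Estimated counts summed to 53411182 to 77510631 per library, and 8 epithelial markers of the tumor cells, such as Epcam and Krt8, summed to 1670 to 2730 FPKM, so the labelled tissue carried its defining genes.

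Each ribosome is built from a small subunit, which reads the messenger RNA, and a large subunit, which joins amino acids. Ribosomal proteins are made in matched amounts, and their messenger RNAs start with a C followed by a run of pyrimidines, the 5′ TOP motif, through which mTORC1 signaling and the protein LARP1 control their translation. They are among the most abundant messenger RNAs in growing cells, and free ribosomal proteins such as RPL5 and RPL11 can bind MDM2 and stabilize p53. RNA levels alone do not measure translation.

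The ribosomal protein genes took a smaller share of the RNA on the mean in tumors treated with BC@Z-M + L. They held 8.65%, 10.9%, 7.96%, 9.55% and 8.42% of the summed FPKM in control replicates 1 to 5, and 7.52%, 7.36%, 7.99%, 8.67% and 8.23% in BC@Z-M + L replicates 1 to 5. The groups overlapped, with the highest value in control replicate 2 and the lowest in BC@Z-M + L replicate 2. The means were 9.09% ± 1.15 (SD, n = 5) and 7.96% ± 0.532 (SD, n = 5), a difference of -1.13 percentage points, which became -0.689 without control replicate 2. By estimated counts the shares were 5.75% ± 1.07 and 4.84% ± 0.371 (SD, n = 5 each). In this bulk RNA, fewer cells rich in ribosomal messenger RNA and less of it per cell cannot be told apart.

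**Figure D1:**
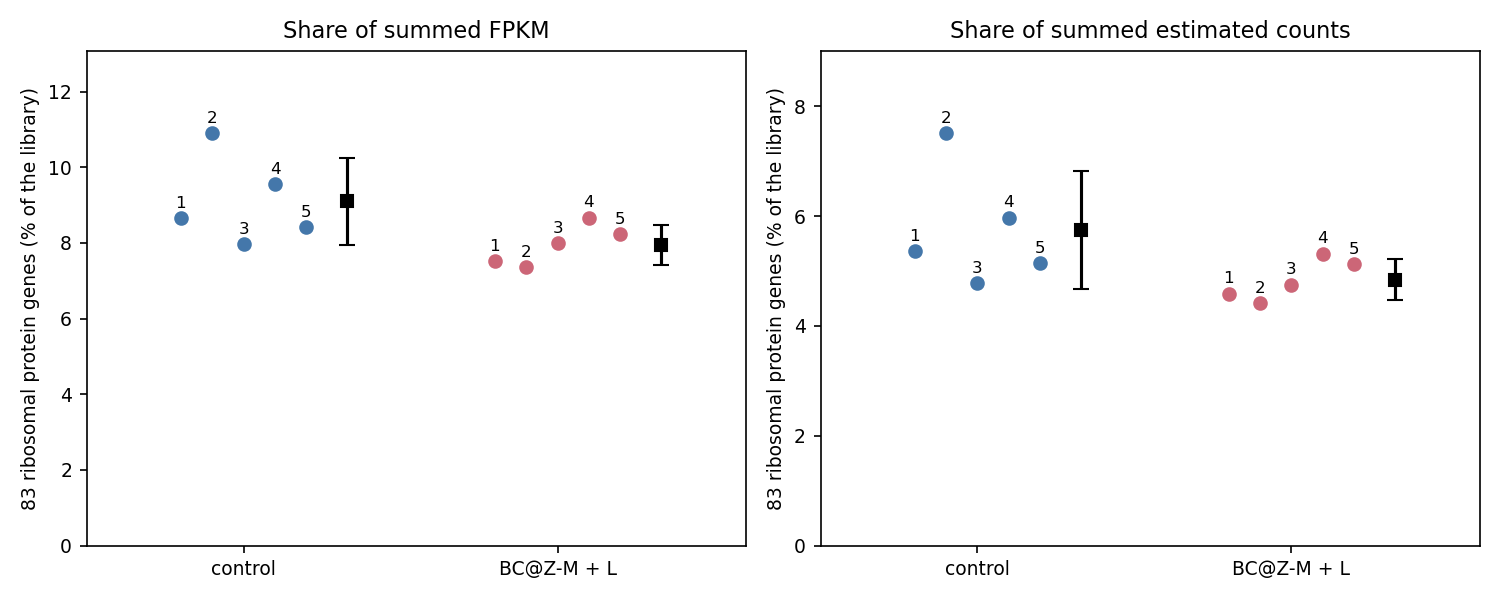
Share of each library taken by the 83 ribosomal protein genes, as a percentage of summed FPKM (left) and of summed estimated counts (right); circles are libraries with their replicate number, and squares with bars are group means ± SD (n = 5). Control replicate 2 lies highest at 10.9% of summed FPKM, and the 2 groups overlap.

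Gene by gene, 80 of the 83 members were lower on the mean in the treated tumors, which is 96.4%, against 53.8% of all 12802 genes tested. The median difference of log2(FPKM + 1), BC@Z-M + L minus control, was -0.23 over the members and -0.01 over all genes tested, and the members ranged from -0.46 (Rpl13a) to 0.49 (Rpl17). No member passed limma's test at an adjusted p under 0.05, and 0 of 12802 genes did (0.0%). At an unadjusted p under 0.05, limma placed 7 members lower, 8.43% against a background of 1.73%, and 0 higher against 0.797%. edgeR on the estimated counts likewise called 0 members (background 0.0%) and placed 7 lower at an unadjusted p under 0.05 (background 1.02%). DESeq2 called 0 members (background 0.018%) and placed 8 lower (0.937%). These backgrounds cover 18668 genes in edgeR and 33285 in DESeq2. They include genes under 1 FPKM, unlike the members, and so are not like for like. The members share their 10 libraries and are not replicates, so these counts carry no test of the group.

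Control replicate 2 carried much of the difference. It was the highest of the 10 libraries for 73 of the 83 members, 88.0% against 19.6% of all genes tested, and its level was 1.45 times the mean of the other controls at the median of the members, against 0.964 times over all genes. Without it, the median difference of the members was -0.13, 75 members were lower (90.4%, background 57.3%), and limma placed 4 at an unadjusted p under 0.05 (Rps16 and Rplp2 among them, background 1.11%). edgeR without it gave a median of -0.10, with 73 lower (background 47.4%) and 0 at an unadjusted p under 0.05 (background 0.782%). Both of these backgrounds are over 19050 genes. Control replicate 3 was the lowest control library and moved the values the other way: without it the median was -0.30 and limma placed 35 members lower at an unadjusted p under 0.05 (background 3.24%). The count of 7 was just as unsteady with other libraries left out, at 1 without BC@Z-M + L replicate 2 (background 0.937%), 2 without BC@Z-M + L replicate 1 (1.53%), 3 without control replicate 4 (1.21%), 19 without BC@Z-M + L replicate 4 (6.35%) and 12 without control replicate 5 (1.72%). The count of members lower on the mean was 75 to 82 in these fits, and no member passed the adjusted test in any of them. With other scalings the sign of Rpl10 and Rpl7l1 turned under each and that of Rps4x, Rpl8, Rpl3 and Rps26 under quantile normalization, while 78 members were lower with TPM (background 42.2%), 74 with quantile normalization (51.2%) and 78 with median-ratio scaling (48.8%), with medians of -0.18, -0.15 and -0.21. With array weights, 28 members were lower at an unadjusted p under 0.05 (background 6.46%).

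**Figure D2:**
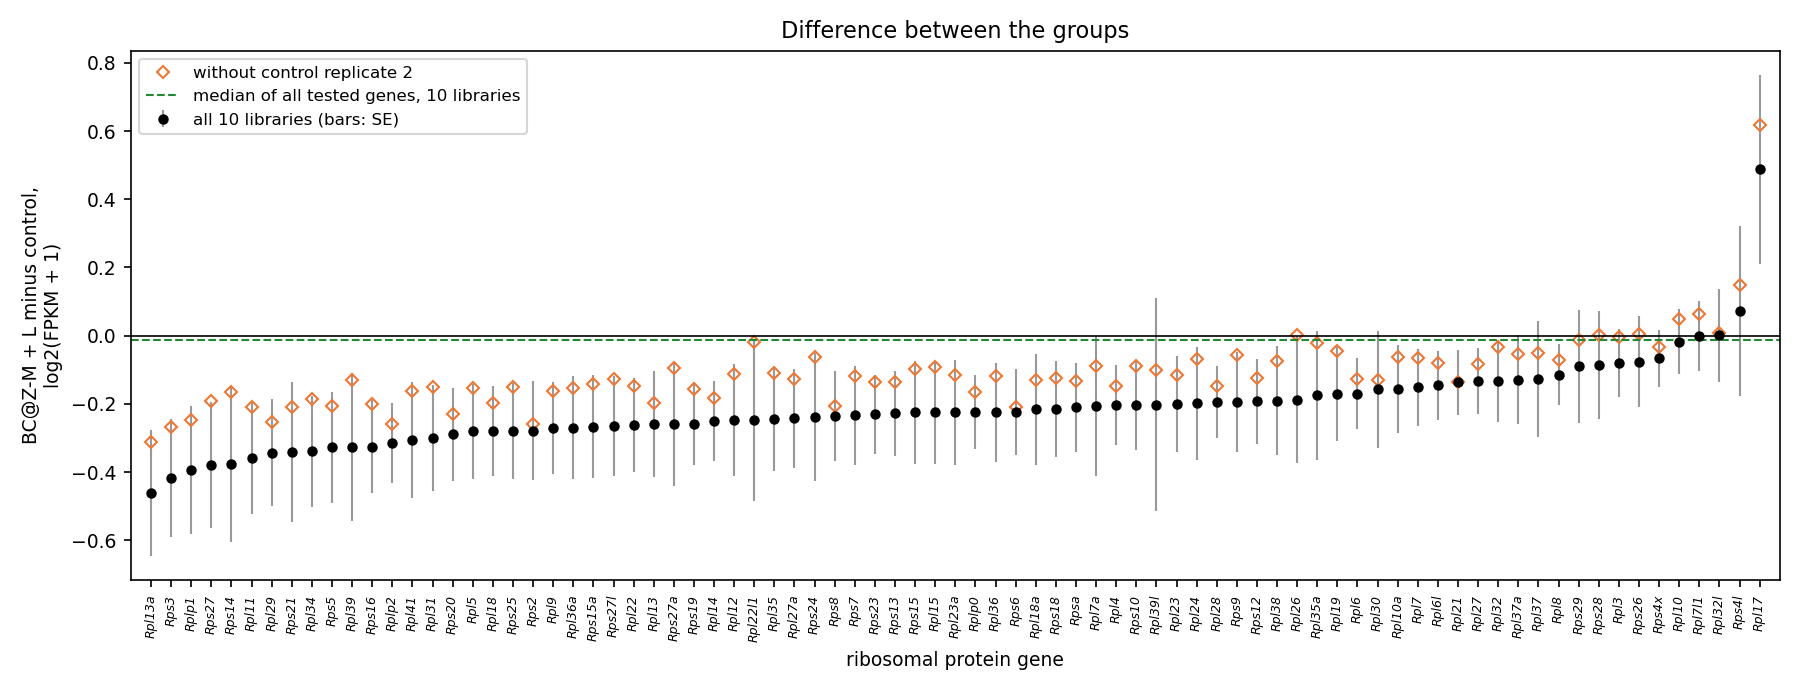
Difference of log2(FPKM + 1), BC@Z-M + L minus control, for 81 of the 83 ribosomal protein genes in order of its value; black circles with SE bars use all 10 libraries, orange diamonds leave out control replicate 2, and the dashed line is the median of all genes tested. 78 black circles lie below 0, and most diamonds lie closer to 0 than the circle of the same gene.

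Control replicate 2 also stood apart in other properties. Its mean score of log2(FPKM + 1) over 8 macrophage markers, such as Adgre1 and C1qa, was 6.18, against 5.19 to 5.75 in the other controls and 5.37 to 5.84 after BC@Z-M + L, and 4 of the 8 markers were highest there. The 13 messenger RNAs encoded by mitochondrial DNA scored 11.01 there against 10.47 to 10.78 in the other controls. After BC@Z-M + L they scored 10.55 to 10.85, and 10 of 13 were highest in control replicate 2. Nuclear retained RNAs such as Malat1 scored 2.01 there, the lowest of all libraries, and proliferation markers scored 4.64, the lowest of the controls. BC@Z-M + L replicate 2, with the lowest ribosomal share, had a lower proliferation score of 4.46. BC@Z-M + L replicate 1, with a ribosomal share of 7.52%, scored 5.84 for macrophage markers and 10.85 for mitochondrial RNAs. The limma array weight, which falls as a library departs from its group, was 0.332 in control replicate 2, the lowest of the 10. The part of these properties in the ribosomal difference was not tested.

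The promoters are shown because the members moved together and the TOP motif lies at the start of their messenger RNAs. Windows of 250 bases before to 50 bases after the annotated start were matched by symbol for 61 of the 83 members in RefSeq (GRCm38.p6), 72 windows in all. A C followed by at least 5 C or T, the first base within 10 bases of the annotated start, was held by 36 of the 72 member windows and by 19.2% of all 32851 windows. By the stricter reading, a C at the start base itself followed by at least 4 C or T, the shares were 19.4% and 2.51%. These windows run 5′ to 3′ over the 60 bases before the start and the 20 bases from it onward, and capitals mark that run of pyrimidines. They were chosen with the values known. The first 4 hold the run, and Rpl13a, Rps27 and Rplp2 among them had large differences between the groups. Rps3 had a similar difference without it, and Rpl10 and Rps4x, with small differences, and the abundant Rpl41 also lack it at this place.
Rpl13a, chr7:45128726-45128805, minus strand: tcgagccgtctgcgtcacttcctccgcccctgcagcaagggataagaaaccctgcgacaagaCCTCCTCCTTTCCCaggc
Rps27, chr3:90213629-90213708, minus strand: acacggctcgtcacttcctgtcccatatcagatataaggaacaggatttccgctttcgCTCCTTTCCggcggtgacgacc
Rplp2, chr7:141447591-141447670, plus strand: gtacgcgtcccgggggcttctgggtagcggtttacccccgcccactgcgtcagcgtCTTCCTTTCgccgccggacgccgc
Rps6, chr4:86857348-86857427, minus strand: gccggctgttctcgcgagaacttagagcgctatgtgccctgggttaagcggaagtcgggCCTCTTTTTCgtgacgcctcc
Rps3, chr7:99483690-99483769, minus strand: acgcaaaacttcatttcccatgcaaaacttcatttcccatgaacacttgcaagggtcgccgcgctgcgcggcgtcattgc
Rpl41, chr10:128549149-128549228, minus strand: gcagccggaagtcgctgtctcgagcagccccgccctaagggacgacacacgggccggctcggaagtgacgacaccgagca
Rpl10, chrX:74270756-74270835, plus strand: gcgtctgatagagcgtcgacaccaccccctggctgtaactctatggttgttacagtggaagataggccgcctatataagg
Rps4x, chrX:102189372-102189451, minus strand: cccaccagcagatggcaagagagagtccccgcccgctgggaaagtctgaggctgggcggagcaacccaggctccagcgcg

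Of the 61 members with a window, the 35 with the pyrimidine run had a median difference of -0.24 and the 26 without it -0.23, and without control replicate 2 the medians were -0.13 and -0.14. The 7 other motifs were searched on both strands of the 300 bases. CCGGAAG, the core of ETS family sites, was in 36.1% of member windows against 8.86% of all windows. AAGATGGC was in 11.1% against 2.75%, ATGGCGGC in 6.94% against 2.24%, CACGTG in 11.1% against 7.15%, and GGAAG, which lies inside CCGGAAG, in 93.1% against 71.4%. TATAAA was in 11.1% against 13.6% and CCAAT in 30.6% against 37.4%. A match describes the letters of the annotated window and no bound factor, and the choice of motifs followed a look at these shares.

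In the small subunit, 31 of 32 members were lower on the mean, with a median difference of -0.24 (-0.14 without control replicate 2). Rps3 lines the entry of the messenger RNA channel and also takes part in DNA repair. It was at 390, 636, 332, 441 and 354 FPKM in the controls and at 318, 249, 314, 370 and 327 FPKM after BC@Z-M + L. Treated libraries 1, 2, 3 and 5 lay below every control, while replicate 4 overlapped them. The difference was -0.42 ± 0.174 (SE), with limma's adjusted p = 0.997 and an exact permutation p = 0.0397, and it was -0.27 without control replicate 2.

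Rps27 was at 241, 396, 180, 229 and 186 FPKM in the controls and at 172 to 190 FPKM in all 5 treated libraries, with a difference of -0.38 ± 0.185 (SE, limma's adjusted p = 0.997, exact permutation p = 0.0714). The treated libraries were close together (181 ± 8.56 FPKM, SD, n = 5), and control replicates 3 and 5 overlapped them.

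Rps6, the substrate of S6 kinase whose phosphorylation is used as a readout of mTORC1 signaling, was at 640, 738, 658, 805 and 716 FPKM in the controls and at 530, 546, 575, 806 and 613 FPKM after BC@Z-M + L. All treated libraries but replicate 4 lay below every control, and replicate 4 was the highest of the 10. The difference was -0.22 ± 0.126 (SE, limma's adjusted p = 0.997, exact permutation p = 0.119), and leaving out control replicate 2 left it at -0.21. Rpsa, which was also described as a laminin receptor, was at 844, 1180, 827, 1090 and 900 FPKM in the controls and at 781, 719, 852, 1010 and 808 FPKM after BC@Z-M + L. Treated replicates 1, 2 and 5 were below every control, and the difference was -0.21 ± 0.131 (SE).

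Rps15, next in level after Rplp1 among the members, was at 1220 ± 299 FPKM in the controls and at 1020 ± 75.3 FPKM in the treated tumors (SD, n = 5 each), and control replicate 3 was the lowest library at 873 FPKM. Rps4x, the X-linked form of RPS4, was the steadiest member. It was at 755, 881, 785, 815 and 776 FPKM in the controls and at 747, 718, 800, 766 and 798 FPKM after BC@Z-M + L, with a within-group SD of 0.0766 on the log2 scale. Its difference was -0.07 ± 0.0829 (SE), and the groups overlapped, with treated replicates 1 and 2 below every control and control replicates 2 and 4 above every treated library.

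In the large subunit, 49 of 51 members were lower on the mean, with a median difference of -0.21 (-0.12 without control replicate 2). Rpl13a, which in human cells also joins the GAIT complex that silences selected messenger RNAs after interferon-gamma, had the lowest difference of all members. It was at 468, 801, 414, 588 and 458 FPKM in the controls and at 376, 305, 374, 497 and 395 FPKM after BC@Z-M + L. Every treated library except replicate 4 lay below all controls. The difference was -0.46 ± 0.185 (SE, limma's adjusted p = 0.997, exact permutation p = 0.0476), and -0.31 without control replicate 2.

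Rpl4, a core protein of the peptide exit tunnel, was at 964, 1240, 971, 1110 and 1070 FPKM in the controls and at 901, 787, 895, 1130 and 945 FPKM after BC@Z-M + L. Again only treated replicate 4 overlapped the controls, and the difference was -0.20 ± 0.117 (SE, limma's adjusted p = 0.997, exact permutation p = 0.0794). Rpl41, the smallest of the proteins, was at 729, 1170, 597, 855 and 670 FPKM in the controls and at 568 to 765 FPKM after BC@Z-M + L, with a difference of -0.31 ± 0.17 (SE) that was -0.16 without control replicate 2. Rpl19 and Rpl23a, at the exit tunnel, differed by -0.17 and -0.23, and by -0.05 and -0.12 without control replicate 2. The share of their difference that rested on this library was therefore larger than for Rpl4, whose value without it was -0.15.

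Rpl10, which finishes the large subunit by joining late in its assembly, differed little. It was at 446, 550, 405, 463 and 429 FPKM in the controls and between 437 and 462 FPKM in all treated libraries, which lay inside the range of the controls. The difference was -0.02 ± 0.0956 (SE) and 0.05 without control replicate 2. Rpl8 was at 626 ± 48.1 FPKM in the controls and 578 ± 39.6 FPKM in the treated tumors (SD, n = 5 each), with a difference of -0.11 ± 0.0903 (SE).

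The P stalk recruits elongation factors to the ribosome. Rplp1 was the most abundant member, rank 13 of all genes, at 2140, 3510, 1710, 2610 and 2060 FPKM in the controls and at 1610, 1420, 1790, 2220 and 1940 FPKM after BC@Z-M + L. The groups overlapped, and the difference was -0.39 ± 0.189 (SE, limma's adjusted p = 0.997, exact permutation p = 0.0952), or -0.25 without control replicate 2. Rplp2, its partner in the stalk dimers, was at 174, 187, 133, 166 and 141 FPKM in the controls and at 114, 116, 129, 144 and 138 FPKM after BC@Z-M + L. Treated replicates 1, 2 and 3 were below every control, and the difference of -0.32 ± 0.117 (SE, limma's adjusted p = 0.997, exact permutation p = 0.0397) was -0.26 without control replicate 2. Rplp0, the stalk base, was at 972, 1220, 999, 1080 and 912 FPKM in the controls and at 837, 797, 883, 1040 and 872 FPKM after BC@Z-M + L, and treated replicate 4 alone overlapped the controls (difference -0.22 ± 0.109, SE).

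No member had groups that did not overlap, against 0.281% of all genes with every treated library below every control and 0.133% with every one above. At most 4 of the 5 treated libraries lay below all controls, and 27 members (32.5%) had at least 3 there, against 10.4% of all genes tested. Over all 83 members, 10 had an exact permutation p under 0.05, all of them lower (background 1.95%), the smallest being 0.0159 for Rps16 where 0.00794 is the smallest that 5 against 5 libraries allow. None of these p-values is adjusted.

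The members moved together from library to library. BC@Z-M + L replicate 2 was the lowest library for 29 of them, 34.9% against 14.5% of all genes tested. Their within-group SD of log2(FPKM + 1) had a median of 0.241, from 0.0766 to 0.569, against 0.212 over all genes tested, and without control replicate 2 the medians were 0.17 and 0.191. After the mean level of the family in each library was subtracted, the median SD was 0.133, and it was smaller than before for 75 members. A single axis held 66.6% of the variance between libraries among the members, against 28.8% over all genes. The median Pearson correlation over the 3403 pairs of members was 0.757 across 10 libraries and 0.516 across the 9 without control replicate 2, as a description of values that share library and scaling. The small subunit stood above the large by 0.334 to 0.358 in mean log2(FPKM + 1) in the controls. After BC@Z-M + L the gap was 0.306, 0.307, 0.302, 0.35 and 0.287 in replicates 1 to 5. Only treated replicate 4 lay inside the range of the controls, and the other treated libraries lay below it. The large subunit mean includes the Rpl17 row, whose difference was 0.49 against a median of -0.21 in that subunit. In counts with its copies, Rpl17 differed by -0.23. Neither this gap nor the part of Rpl17 in it was tested.

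**Figure D3:**
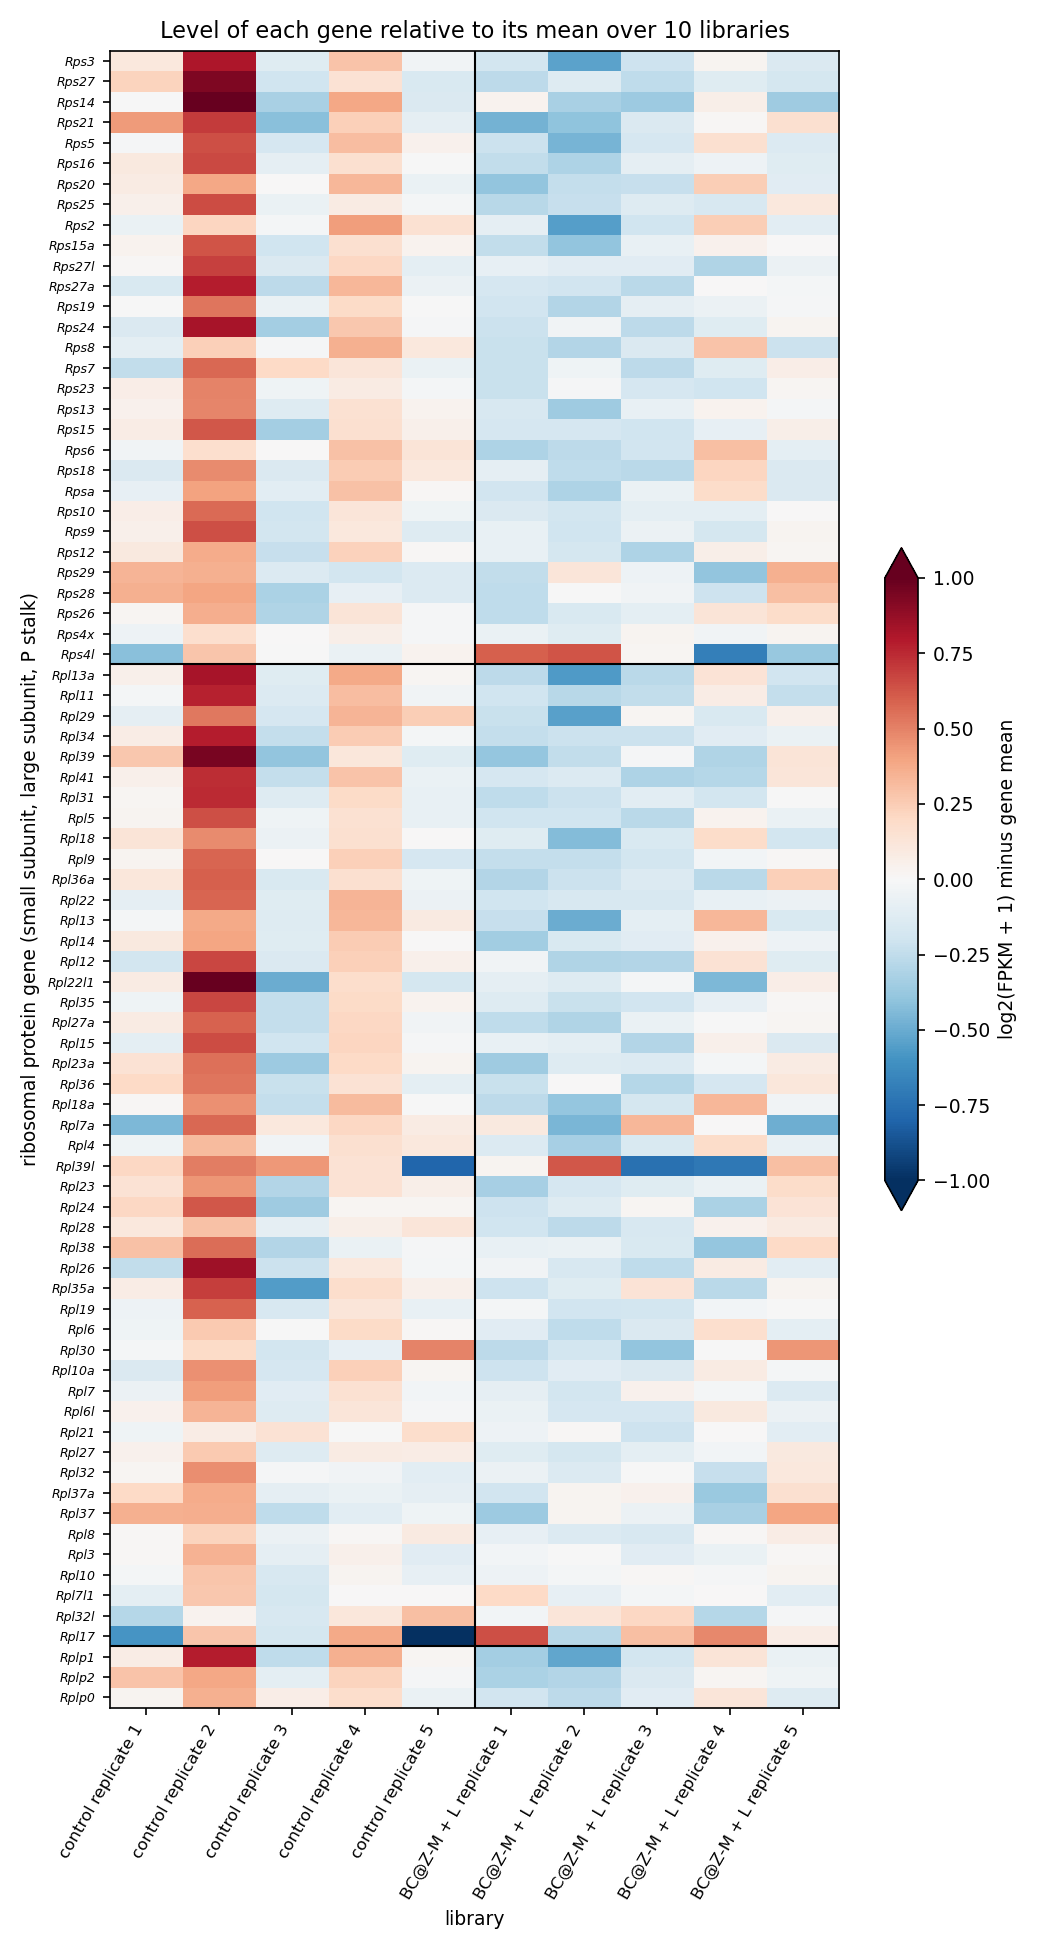
Level of 81 of the 83 ribosomal protein genes (rows, by subunit and then by difference) in each library (columns, controls left of the line), as log2(FPKM + 1) minus the mean of the gene over 10 libraries; the color scale runs from -1 to 1 and values beyond it take the end color. Control replicate 2 is red in nearly all rows, and BC@Z-M + L replicate 2 is the lowest library for 29 of the 83 members.

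Levels spanned a wide range. The mean FPKM had a median of 270.0 with quartiles of 142 and 436, 65 members were over 100 FPKM, and 26 were among the 100 most abundant genes. Another 10 members lay under 30 FPKM. These include paralog forms and genes such as Rpl21 and Rpl29, whose pseudogene copies held most of the estimated counts of gene and copies together. The 21 members with the shortest transcripts (at most 543 bases) and the 20 with the longest (at least 936 bases) had median differences of -0.26 and -0.24. Relative to the long members, the short ones were higher in control replicates 1 and 2 (by 0.18 on the log2 scale in each) and lower in control replicate 3 (-0.15) and BC@Z-M + L replicate 4 (-0.18).

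Paralog forms were lower in level than their namesakes. Rpl22l1, whose product can replace RPL22 in ribosomes, was at 33.5, 65.8, 22.1, 35.8 and 27.8 FPKM in the controls and at 29.7, 28.8, 31.1, 22.9 and 33.2 FPKM after BC@Z-M + L. Control replicate 2 alone stood out, and the difference of -0.25 ± 0.236 (SE) became -0.02 without it. Rpl22 itself was at 90.3, 144, 88.2, 122 and 92.3 FPKM in the controls and at 83.3 to 92.2 FPKM in the treated tumors, with a difference of -0.26, or -0.15 without control replicate 2.

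Rps27l, a p53-inducible gene in human cells, was at 57.0, 91.3, 51.2, 65.5 and 52.7 FPKM in the controls and at 53.5, 52.3, 52.3, 45.6 and 54.3 FPKM after BC@Z-M + L, a difference of -0.26 ± 0.147 (SE) that was -0.13 without control replicate 2. Rpl7l1, a factor of large subunit assembly, was at 23.5 ± 2.94 and 23.4 ± 2.1 FPKM (SD, n = 5 each), while Rpl7 was at 486 ± 77.0 and 434 ± 28.1 FPKM. The difference was 0.00 for Rpl7l1 and -0.15 for Rpl7, and neither passed limma's test (adjusted p = 1.0 and 0.997). Rpl39l, which in mice serves the ribosomes of male germ cells, was at 1.5, 2.08, 1.92, 1.39 and 0.247 FPKM in the controls and at 1.2, 2.33, 0.291, 0.318 and 1.67 FPKM after BC@Z-M + L. It varied most of all members (SD 0.569 on the log2 scale), with no order by group, while Rpl39 was at 185 ± 72.0 and 141 ± 21.8 FPKM.

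Rpl32l, Rps4l and Rpl6l have no protein-coding transcript in GENCODE M21. Rps4l was at 1.81 ± 0.473 FPKM in the controls and 2.12 ± 1.21 FPKM in the treated tumors, Rpl32l at 1.58 ± 0.409 and 1.57 ± 0.327 FPKM, and Rpl6l at 43.6 ± 5.53 and 39.2 ± 3.14 FPKM (SD, n = 5 each). Rpl6 was at 337 ± 31.8 and 300.0 ± 33.7 FPKM and Rpl32 at 438 ± 75.7 and 396 ± 35.5 FPKM. Just inside the level of 1 FPKM lay Rpl39l and Rpl21, both with a mean of 1.3 FPKM. Just outside it lay Rps12l1 (mean 0.552 FPKM), at 4.55 FPKM in control replicate 2, at 0.964 FPKM in control replicate 5 and listed at 0 in the other 8 libraries, and Rpl3l (0.107 FPKM), a form of skeletal and heart muscle.

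Ribosomal protein genes have many processed pseudogenes, and the table gives these copies rows of their own. By alignment of GENCODE M21 transcripts (at least 90% identity over at least 70% of the copy), 78 members had at least 1 copy in the table. Copies held a median of 4.11% of the estimated counts of a gene with its copies and under 10% for 52 members, but more than 50% for 8 members: Rpl21 (99.2%), Rpl29 (97.9%), Rpl26 (96.2%), Rps2 (94.5%), Rpl30 (88.8%), Rpl35a (87.0%), Rps18 (70.5%) and Rpl17 (60.2%). For these 8 the level of the gene row alone is uncertain. The same holds for members just under this cut: Rplp0 (48.1%), Rpl3 (46.8%) and Rpl7a (44.9%). For Rpl7a the share ran from 33.3% to 62.0% between libraries. Gm8730, a copy of Rplp0, had a mean of 1260 FPKM against 961 FPKM for the Rplp0 row. The low level of Rpl21, at 1.22 to 1.59 FPKM in the controls and 0.989 to 1.31 FPKM after BC@Z-M + L, stood beside a copy, Gm10240, with a mean of 273 FPKM.

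Rpl17 had the highest difference of all members. Its gene row was at 185, 339, 248, 363 and 129 FPKM in the controls and at 437, 230, 344, 391 and 295 FPKM after BC@Z-M + L, a difference of 0.49 ± 0.277 (SE, limma's adjusted p = 0.997, exact permutation p = 0.167). The libraries of both groups overlapped. The share on copies, mainly Rpl17-ps10, ranged from 39.2% to 81.3% between libraries, against 47.0% to 49.4% for Rplp0 and its copies. In counts the gene row alone differed by 0.51, and the gene with its copies by -0.23. With copies added, 80 of 83 members were lower on the mean and the median difference was -0.21, Rpl29 moved from -0.33 to -0.17 and Rpl35a from -0.17 to -0.31.

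**Figure D4:**
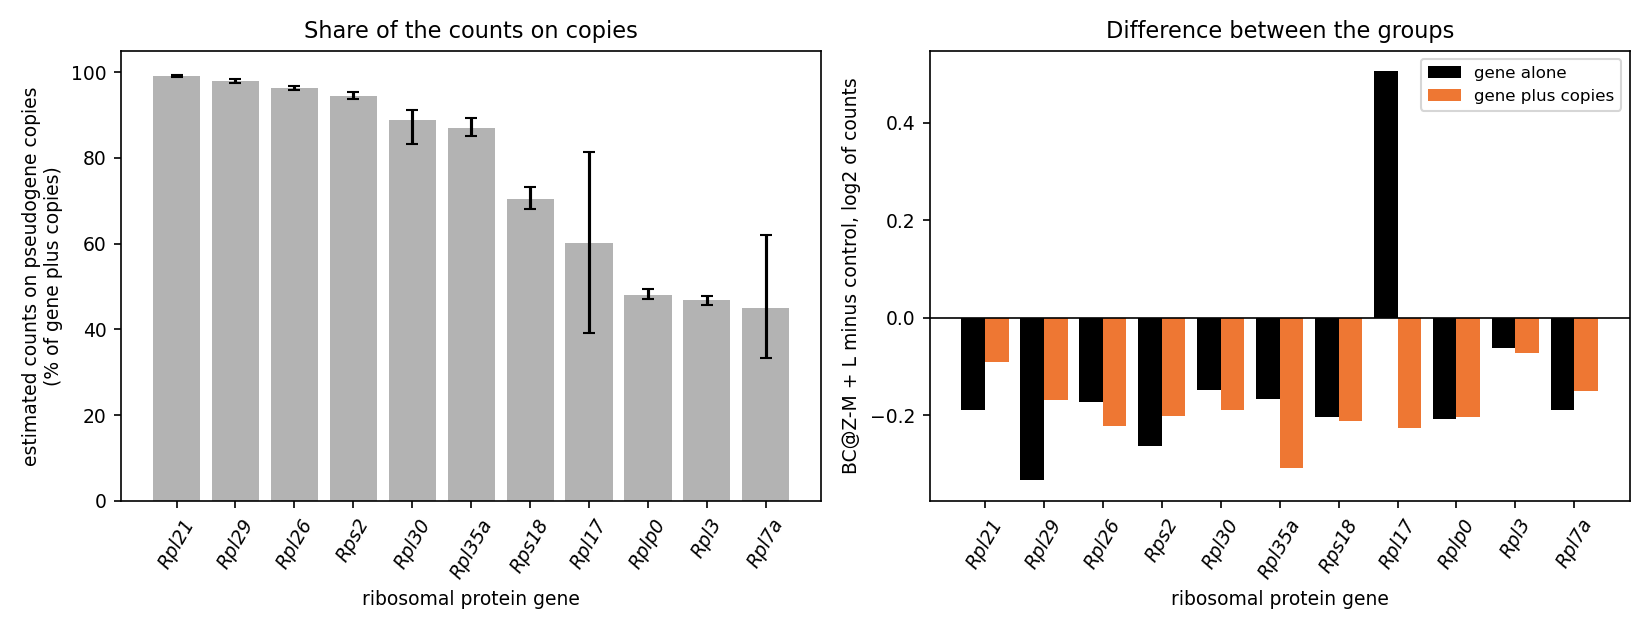
Left, share of estimated counts on pseudogene copies, as a percentage of the gene plus its copies, for the 11 members above 40% (bars pool 10 libraries, error bars run from the lowest to the highest library); right, difference of log2 counts, BC@Z-M + L minus control, for the gene alone (black) and with its copies (orange). Rpl17 is at 0.51 alone and at -0.23 with its copies.

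Related genes were counted by lists, and none of their genes passed limma's test. Over all genes tested, 53.8% were lower on the mean, and 57.3% without control replicate 2, which is the background for the counts below. The list of 7 other ribosomal protein genes, which the symbol rule misses, had all 7 lower on the mean, with a median difference of -0.20 (-0.12 without control replicate 2). Among them, Rpl37rt was also counted above as a pseudogene copy of Rpl37. Rps3a1, for example, was at 1220 ± 189 and 1060 ± 86.1 FPKM and Fau at 520 ± 109 and 455 ± 53.5 FPKM (SD, n = 5 each). Of 78 mitochondrial ribosomal protein genes, 69 were lower, with a median of -0.14 (-0.10). At an unadjusted limma p under 0.05, 9 of the 78 were lower, against a background of 1.73% of all genes tested. These included Mrpl41, at 21.4 ± 4.15 and 16.3 ± 2.29 FPKM, Mrps28, at 31.1 ± 2.98 and 24.5 ± 5.36 FPKM, and Mrpl2, at 38.6 ± 1.98 and 33.1 ± 3.06 FPKM. Control replicate 2 was the highest library for 48 of the 78.

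Of 13 elongation factors and other TOP genes, 7 were lower (median -0.08, and -0.04 without control replicate 2), a share near the background of 53.8%. Eef1a1, which brings transfer RNAs to the ribosome, was at 4360 ± 221 and 3930 ± 401 FPKM, and Tpt1 at 1420 ± 462 and 1140 ± 81.2 FPKM. Eef2 and Pabpc1 were among the genes that were higher on the mean. Of 13 genes of initiation factor eIF3, 12 were lower (median -0.10, and -0.09), with Eif3k at 49.3 ± 7.79 and 41.8 ± 2.71 FPKM. Of 32 ribosome assembly factors, 27 were lower with a median of -0.10, and without control replicate 2 all 32 were lower with a median of -0.17. For this list control replicate 2 was the highest library for 2 of 32 genes, unlike the ribosomal proteins. Nop10, of the H/ACA particles that guide pseudouridylation, was at 23.1 ± 6.05 and 18.0 ± 2.42 FPKM.

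RNA polymerase I makes ribosomal RNA, and 12 of its 18 listed genes were lower (median -0.06, and -0.07 without control replicate 2). Polr2h, a subunit shared by the nuclear RNA polymerases, was at 17.3 ± 3.1 and 13.5 ± 3.49 FPKM. Of 13 genes of mTORC1 and TOP control 7 were lower (median -0.01, and 0.00), with Larp1 at 20.2 ± 4.71 and 23.1 ± 2.06 FPKM. MYC drives ribosome production, and its network list had 3 of 8 lower (median 0.07, and 0.04), with Myc at 61.4 ± 12.1 and 59.4 ± 11.4 FPKM. The list also holds antagonists of MYC such as Mxd1 and Mxi1, so its median does not measure MYC activity. Genes of ribosome stress and p53 had 2 of 12 lower (median 0.04, and 0.00), with Mdm2 at 13.2 ± 2.45 and 14.8 ± 3.1 FPKM and the p53 target Cdkn1a with a difference of 0.12 (SD, n = 5 each).

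**Figure D5:**
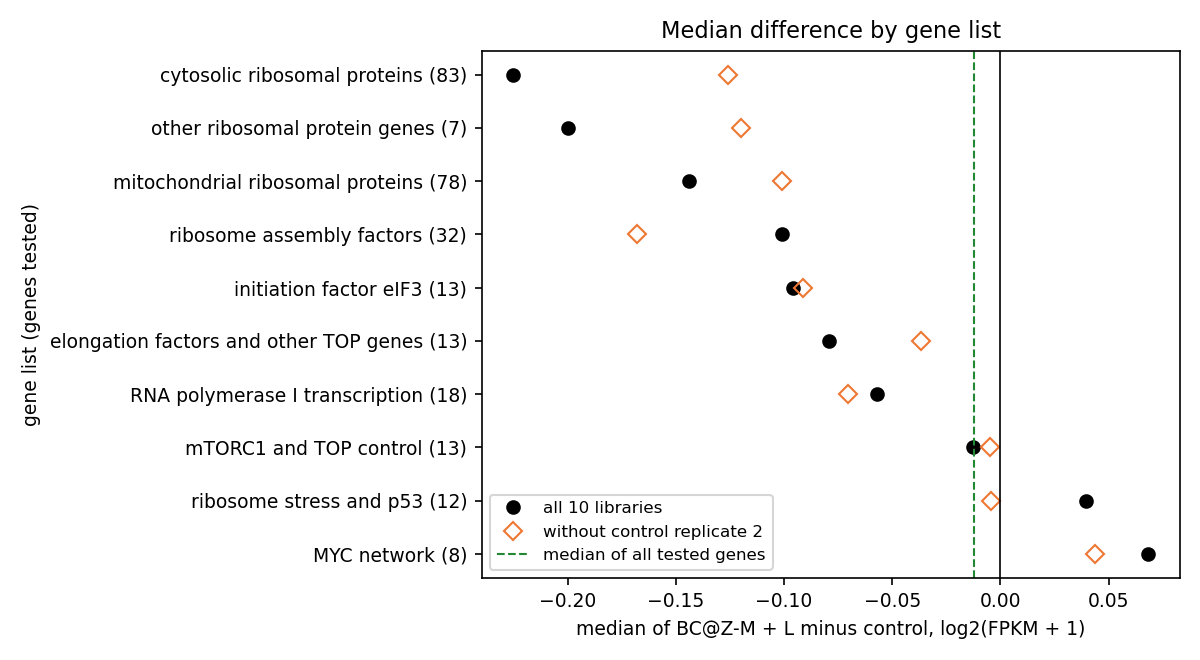
Median over each gene list of the difference of log2(FPKM + 1), BC@Z-M + L minus control, with the number of genes tested in brackets; black circles use all 10 libraries, orange diamonds leave out control replicate 2, and the dashed line is the median of all genes tested. The cytosolic ribosomal proteins move from -0.23 to -0.13 and the ribosome assembly factors from -0.10 to -0.17.

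Of the 12 marker lists of cell types, none had a gene past limma's test. The T cell list had 4 of 8 genes tested, all higher on the mean in the treated tumors (median 0.57). Of these 4, 2 were higher at an unadjusted limma p under 0.05 (background 0.797%). Cd3g, 1 of the 4, averaged 0.76 FPKM in the controls and passed the level through the treated libraries (1.57 FPKM). The T cell score was highest in BC@Z-M + L replicate 2 (1.99). Medians of other lists were 0.69 (skeletal muscle), 0.41 (keratinocytes), 0.14 (fibroblasts), 0.11 (leukocytes), 0.09 (endothelial), 0.06 (epithelial) and -0.13 (adipocytes). Krt1 (0.525 and 2.56 FPKM) and Ckm (0.517 and 1.96 FPKM) passed the level as Cd3g did. Of 6 neutrophil genes 5 were lower (median -0.28), and all 4 erythroid genes tested were lower (median -0.57). No B cell gene reached the level of 1 FPKM. Of the 8 macrophage genes 4 were lower (median 0.00, and 0.17 with 2 lower without control replicate 2), and their summed level was 453 to 1440 FPKM in the controls and 581 to 793 FPKM in the treated tumors, with none at 0 throughout. Of the 10 housekeeping genes 6 were lower (median -0.01), and of the 10 proliferation genes 9 (median -0.03, and -0.11 with all 10 lower without control replicate 2). Keratinocyte markers were highest in BC@Z-M + L replicate 2 (score 3.62), the library that was lowest for 29 ribosomal members, and summed to 3.34 to 285 FPKM over the treated libraries and to 4.17 to 49.0 FPKM over the controls. Skeletal muscle markers scored 2.97 there and 3.36 in BC@Z-M + L replicate 3, and adipocyte markers were highest in control replicate 4 (3.47). Their part in the ribosomal values was not tested. Outside the members, the 824 genes at 50 FPKM or more had a median difference of -0.03, and 61.5% were lower.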

How the data were processed

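RNA of 5 control and 5 BC@Z-M + L tumor samples was analysed. According to the methods, total RNA was extracted with TRIzol and libraries were made with a TruSeq kit, and the authors ran FastQC on the reads, HISAT2 for alignment, StringTie for assembly and quantification, and gffcompare to merge transcripts. The submitters' processing notes name cutadapt 1.9 and the build GRCm38. The methods name another annotation release, and the labels name another sequencer and triplicates. The authors deposited FPKM values, scaled to transcript length and library size, and whole-number estimated counts, which pile up at multiples, so that 1 count need not be 1 fragment. How the estimated counts were made, whether strand was used and which HISAT2 and StringTie versions were run is not given in the sources used here. Reads of near-identical copies could have been split between rows.

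For the 12802 genes that averaged 1 FPKM or more, log2(FPKM + 1) was fitted with limma 3.58.1 with a variance trend (R 4.3.3), two-sided, and adjusted by Benjamini-Hochberg over all of them. Each member also had a two-sided exact permutation test. Fold changes on this scale understate those of low genes. edgeR 4.0.16 and DESeq2 1.42.0 on the estimated counts were alternatives, beside a pseudocount of 0.1, no filter, TPM, quantile and median-ratio scaling, no trend, array weights, a replicate block and leaving out each library. Counts with copies and edgeR without control replicate 2 were added after seeing the data. Tests were checked on simulated data. Depth was 53411182 to 77510631 estimated counts per library. Shares over the members, list medians and spreads carry no test. The members, the 25 gene lists and the rule for the 68 named genes were chosen with earlier results of these data known. The rule takes the members with the highest level, the largest differences and the largest and smallest spread, the P stalk and Rpsa, paralog forms with their namesakes, those next to the level of 1 FPKM and, in each pathway list, the most abundant and most different genes. Rps16, Rpl29, Rpl35a and other genes of small groups were named after their values were seen. Promoters and names are from RefSeq (GRCm38.p6) and copies from GENCODE M21; no coordinates of the aligned reads were used. All columns of per-sample values were used. Results of some genes are counted but not reported here.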

Additional observations from a re-analysis of the deposited data

Results flagged for a closer look

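Values far from the other 4 of their group were found 9 times in 148 groups of 5 libraries checked, and chance alone flags about 1 in 20 groups. Among the members, Rpl32 was high in control replicate 2 (571 FPKM, against 384 to 419 FPKM in the other controls), Rpl39l was low in control replicate 5 (0.247 FPKM), and Rps27l was low in BC@Z-M + L replicate 4 (45.6 FPKM). Rpl3l, just outside the level of 1 FPKM, was listed at 0 in control replicate 4.

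Among the other genes, Eif3c and Eif4ebp2 were low in control replicate 2 (56.6 and 11.5 FPKM). Eif3i was high in BC@Z-M + L replicate 4 (43.9 FPKM). Taf1d was high in control replicate 4 (23.8 FPKM) and in BC@Z-M + L replicate 4 (23.1 FPKM). The part of these libraries in the values was not tested.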

How the results depend on the processing

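No member, named gene or listed gene passed the test at an adjusted p under 0.05 under any of the alternatives run, and over all genes DESeq2 called 6 where limma and edgeR called 0 (limma placed 221 genes lower and 102 higher at an unadjusted p under 0.05). The median difference of the members was -0.227 with a pseudocount of 0.1 and -0.231 in edgeR, and with 1 library left out it ranged from -0.302 to -0.126. The share of summed FPKM differed by -1.41 to -0.689 percentage points and the spread was 0.17 to 0.256 with 1 library left out.

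Replicate numbers showed no clear pairing of the libraries, though this check cannot exclude one. Same-numbered deviations correlated by -0.283, 0.0278, 0.00298, 0.533 and -0.0964, and only number 4 correlated best with its own. With the replicate block the median stayed at -0.225 and 0 members passed.

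Some named genes changed sign under an alternative, and the cause was not tested. Rps4x was 0.00609 and Rpl8 0.0298 with quantile normalization. Rpl10 was 0.0296 with TPM, 0.116 with quantile, 0.00102 with median-ratio, 0.0219 with array weights and 0.0728 in edgeR without control replicate 2. Rpl7l1 was 0.0453, 0.0187, 0.0163 and 0.0516 under the same 4, 0.00841 in edgeR, 0.00843 in DESeq2, 0.0924 in edgeR without control replicate 2 and 0.0175 with copies. Rpl32l was -0.0186 with array weights and -0.00139 in edgeR without a filter, and Rpl17 -0.225 with copies. Eif3c was 0.0447, 0.0382 and 0.0161 with TPM, quantile and median-ratio, 0.00357 in edgeR and 0.00335 in DESeq2. Ncl was 0.0353, 0.00214 and 0.00662 with those 3. Eif4e was 0.0341, 0.00175, 0.00567 and 0.0044 with the 4, 0.00357 in edgeR, 0.00339 in DESeq2 and 0.0208 in edgeR without control replicate 2. Myc was 0.0033 with TPM. Zfp598 was -0.137 and Mdm2 and Cdkn1a -0.104 and -0.105 with array weights, and Zfp598 -0.0522 in edgeR without control replicate 2. With 1 library left out, 11 of the 68 named genes changed sign. Their values then ran from -0.0606 to 0.0497 for Rpl10, -0.0517 to 0.0648 for Rpl7l1, -0.0707 to 0.0756 for Rpl32l, -0.0772 to 0.252 for Rps4l, -0.149 to 0.0602 for Eif3c, -0.179 to 0.0825 for Ncl, -0.0539 to 0.0369 for Eif4e, -0.141 to 0.0388 for Myc, -0.052 to 0.528 for Mxd1, -0.0796 to 0.0681 for Zfp598 and -0.0437 to 0.289 for Cdkn1a.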
